A study of Mus musculus with 4 samples.

Results

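Polycomb complex 2 (PRC2) is represented here by 6 genes: the methyltransferase genes Ezh2 and Ezh1, the core subunit genes Eed and Suz12, and the accessory subunit genes Jarid2 and Mtf2. They were taken as a named list out of 21883 protein-coding genes on the assembled mouse chromosomes. No measured value entered the rule, but the list was chosen with earlier results of these data known. For each gene, the accessible regions (peaks) that overlapped the gene body with 50 kb on each side were collected from 4 single-nucleus ATAC-seq libraries, in which a transposase cuts open DNA. The cells were embryonic stem cells of mouse blastocyst origin. They were Cdc14ab KO cells after 5 days in neural differentiation medium, Cdc14ab KO cells in LIF medium (day 0), wild-type cells after 5 days in the same differentiation medium, and wild-type cells in LIF medium (day 0). Cdc14a and Cdc14b encode phosphatases that act against cyclin-dependent kinases. All 4 cultures were grown on feeder cells, which were removed by plating at low density on gelatin before extraction. Differentiation medium was N2B27 with EGF and FGF2. Each group is 1 library, and all 4 carry the label clone 3, so a difference between genotypes cannot be told apart from a difference between cell lines, and no value below has a replicate error or a p-value.

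PRC2 adds methyl groups to a lysine in the tail of histone H3, a mark of repressed chromatin that covers the promoters of many developmental regulators in embryonic stem cells. Ezh2 is the main methyltransferase of dividing cells, and its paralog Ezh1 is the form more common in resting and differentiated cells. Eed binds the methylated product and Suz12 holds the complex together. Jarid2 and Mtf2 are accessory subunits that help bring the complex to its targets. The peaks say where the DNA of these genes is open, not how much of each protein is made.

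The lists held 227878 peaks in the day 5 knockout, 222257 in the day 0 knockout, 189571 in the day 5 wild type and 198860 in the day 0 wild type. The lists hold positions without heights, and how deeply each library was sequenced is not known, so fewer reads as well as closed chromatin can leave a region unlisted. A region that is weaker in every nucleus and one that is closed in a share of the nuclei cannot be told apart either. The wild-type day 5 library stands apart from the others. The starts of the Y-linked genes Eif2s3y, Uty and Ddx3y had 915, 888 and 792 bp covered within 1 kb there, and 0 bp in the other 3 libraries. Each list did hold some peaks on chromosome Y. They numbered 14 in the day 5 knockout, 16 in the day 0 knockout, 20 in the day 5 wild type and 16 in the day 0 wild type. Of the 4 comparisons below, 2 use the wild-type day 5 library, wild type over time and the genotypes at day 5. Without it, the knockout over time and the genotypes at day 0 remain. Stem cell marker genes had a peak within 1 kb of the start in 6 of 6 genes with a known start in each library other than wild type at day 5, where 5 had one and Pou5f1 (OCT4) had none. Around the Pou5f1 start, 257 bp were covered in the day 5 knockout, 1162 bp in the day 0 knockout and 1179 bp in the day 0 wild type. The 6 neural progenitor genes had a start peak in every library, so the presence of those peaks does not separate the days.

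The start of each PRC2 gene was open in every library, and for that reason the DNA at the starts of the paralogs Ezh2 and Ezh1 and of Suz12 is shown. Each line gives 250 bases before the start and 20 bases from it on, 5′ to 3′ along the gene, from RefSeq promoters on GRCm38.p6. Capitals mark letters of the motifs searched on both strands, listed after the sequences.
Ezh2, chr6:47595011-47595280, minus strand: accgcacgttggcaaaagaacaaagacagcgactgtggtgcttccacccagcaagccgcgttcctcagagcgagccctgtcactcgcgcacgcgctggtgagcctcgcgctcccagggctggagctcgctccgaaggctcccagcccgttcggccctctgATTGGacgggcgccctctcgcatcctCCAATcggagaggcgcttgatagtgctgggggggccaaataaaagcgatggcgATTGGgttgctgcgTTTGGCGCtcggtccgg
Ezh1, chr11:101226444-101226713, minus strand: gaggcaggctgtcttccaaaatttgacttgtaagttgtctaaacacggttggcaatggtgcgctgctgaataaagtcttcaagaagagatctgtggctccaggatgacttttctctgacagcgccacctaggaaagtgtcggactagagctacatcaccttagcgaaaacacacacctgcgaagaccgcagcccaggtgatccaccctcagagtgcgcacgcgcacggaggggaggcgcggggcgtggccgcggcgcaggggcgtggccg
Suz12, chr11:79992856-79993125, plus strand: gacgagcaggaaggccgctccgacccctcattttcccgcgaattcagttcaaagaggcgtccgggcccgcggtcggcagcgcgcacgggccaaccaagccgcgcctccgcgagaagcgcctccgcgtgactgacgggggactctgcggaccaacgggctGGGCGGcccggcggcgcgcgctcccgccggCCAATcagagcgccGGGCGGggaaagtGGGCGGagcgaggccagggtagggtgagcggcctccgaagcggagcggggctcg

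The motifs were the CCAAT box (CCAAT), the GC box (GGGCGG), an E2F motif (TTTGGCGC or TTTCGCGC), an ETS motif (CCGGAAG) and the CRE (TGACGTCA), and none of them contains another. Ezh2 held 3 CCAAT boxes, at −90 to −86, −64 to −60 and −11 to −7 from the start, and 1 E2F motif at 4 to 11. Suz12 held 3 GC boxes and 1 CCAAT box. In the promoter of Jarid2 there were 1 GC box and 1 CCAAT box, and in that of Mtf2 there was 1 GC box. No motif of the list was present at Ezh1 or Eed. Of 27025 RefSeq promoters of the same length, 36.0% held a CCAAT box, 34.4% a GC box, 0.755% the E2F motif, 8.31% the ETS motif and 1.79% the CRE. A match is a string of letters and does not show that a factor binds there. CpG sites numbered 27 at Ezh2, 19 at Ezh1, 15 at Eed, 41 at Suz12, 23 at Jarid2 and 25 at Mtf2, against a median of 6 over all promoters. Fewer CpG sites were found in 69.0% of all promoters than at Eed, in 76.5% than at Ezh1 and in 98.2% than at Suz12.

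A peak covered the start base of all 6 genes in all 4 libraries. Over the 17491 protein-coding genes with a known start, 60.6% had a peak over the start base in every library, and 68.3% had one within 1 kb. The 24 start peaks of the PRC2 genes were 697 to 929 bp wide, and no edge of a gene's peak differed by more than 158 bp between libraries. At Ezh2 the start peak was 872 bp wide in the day 5 knockout, 888 bp in the day 0 knockout, 839 bp in the day 5 wild type and 929 bp in the day 0 wild type. At Suz12 it was 929, 921, 902 and 927 bp wide in the same order of libraries. These peaks therefore overlapped in extent across genotype and day. The knockout at day 5 had 1 further peak beside the Ezh2 start, at chr6:47593922-47594593, centred 0.773 kb into the gene, which none of the other 3 libraries listed. The second start of Jarid2, at position 44731271 of chromosome 13, and that of Mtf2, at position 108078165 of chromosome 5, had no peak over the start base in any library.

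**Figure D1:**
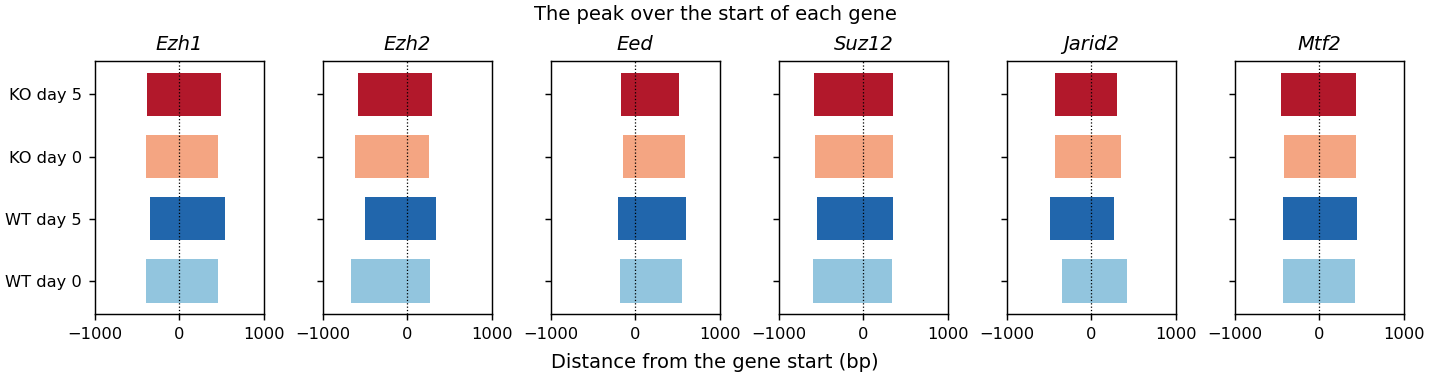
Extent of the peak over each gene's start, in bp from the start along the direction of transcription (x axis), in knockout and wild-type libraries at day 5 and day 0 (rows). All 24 peaks span the start, with widths of 697 to 929 bp.

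The surroundings of the starts were not alike in the 4 libraries. In the gene bodies with 50 kb on each side, peaks covered less sequence at day 5 than at day 0 at all 6 genes in wild type and at all but Ezh1 in the knockout. Summed over the 6 genes, peaks covered 150.3 kb in the day 5 knockout, 175.3 kb in the day 0 knockout, 109.6 kb in the day 5 wild type and 162.8 kb in the day 0 wild type. Wild type at day 5 had the lowest covered length at each of the 6 genes. Since lists of different length cover different amounts everywhere, each gene was also compared as a locus ratio, the log2 ratio of covered bp between libraries after adding 500 bp to each, minus the median of that ratio over all genes. A ratio of at least 0.5 in size is called higher or lower.

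**Figure D2:**
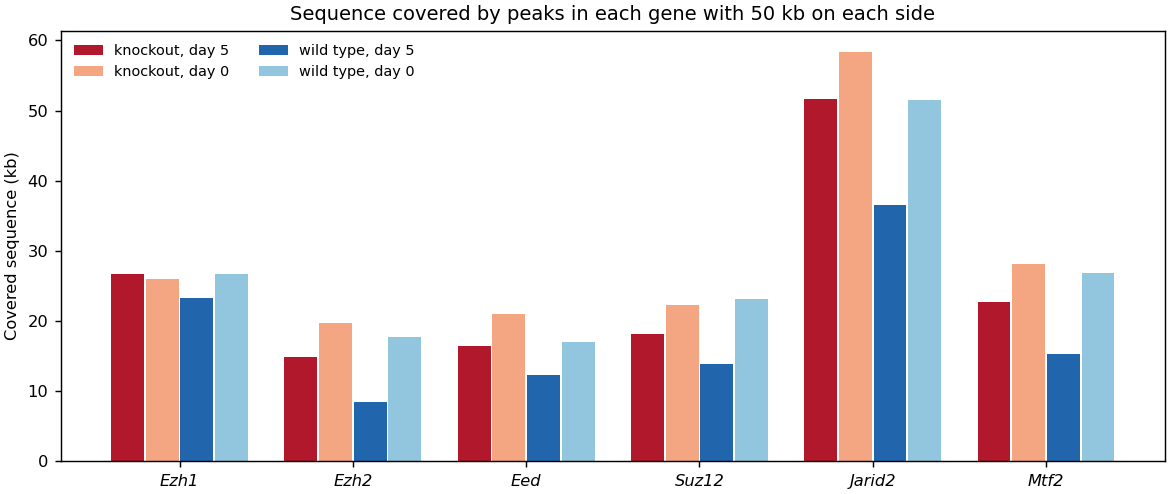
Sequence covered by peaks (kb, y axis) in each gene with 50 kb on each side, for knockout and wild type at day 5 and day 0 (bars, 1 library each). Wild type at day 5 is the lowest bar at each gene, from 8.39 kb at Ezh2 to 36.5 kb at Jarid2.

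Ezh2 (chromosome 6, 47530274 to 47595270) showed the largest ratios of the 6 genes over time in either genotype and between genotypes at day 5. Its window held 14793 bp of peaks in the day 5 knockout, 19715 bp in the day 0 knockout, 8387 bp in the day 5 wild type and 17710 bp in the day 0 wild type. The day 0 libraries were thus close to each other, and the day 5 libraries were lower, wild type by more. The locus ratio of day 5 against day 0 was −0.37 in the knockout and −0.81 in wild type, and the difference between these time courses, knockout minus wild type, was 0.44. Between genotypes the ratio was 0.48 at day 5 and 0.04 at day 0. A ratio at or above 0.48 was found at 10.6% of all genes at day 5. The median gene of chromosome 6 stood at 0.03 in that comparison, and the median of 40 genes within 2 Mb whose windows do not touch that of Ezh2 at 0.09.

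Most of the lower coverage at Ezh2 lay outside the gene body. In the 50 kb upstream, peaks covered 4159 bp in the day 5 knockout, 8347 bp in the day 0 knockout, 2105 bp in the day 5 wild type and 8186 bp in the day 0 wild type. In the gene body they covered 5835, 4404, 3199 and 3938 bp in the same order, so there the knockout had more at day 5 than at day 0. With the gene body alone, the ratio of day 5 against day 0 was 0.37 in the knockout and −0.21 in wild type, and the call in wild type was lost. With 50 kb on each side of the start it was −0.36 in the knockout and −1.17 in wild type, where 10.4% of all genes were called lower. The ratio of knockout over wild type at day 5 became 0.80 in that setting, past 0.5, where 11.7% of all genes were called higher.

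Peaks of the 4 libraries were joined into 1 region wherever they overlapped by at least 1 bp, which gave 30 regions at Ezh2. Of 11 regions in its upstream flank, 4 were listed in the day 5 knockout, 9 in the day 0 knockout, 2 in the day 5 wild type and 9 in the day 0 wild type. A run of 3 regions centred between −30.7 and −34.9 kb from the start (chr6:47625350-47626136, chr6:47626431-47627417 and chr6:47629505-47630413, chosen after their values were seen) was listed at day 0 in both genotypes and at day 5 in neither. The next regions outward, at chr6:47633238-47634356 and chr6:47635162-47636103, were listed in the knockout at both days and in the day 0 wild type, but not in the day 5 wild type. In the gene body, chr6:47560277-47561009 and chr6:47583000-47583943 were listed in the day 5 knockout alone. The knockout at day 5 therefore listed part of the day 0 upstream regions. Of the 30 regions at Ezh2, 3 were listed in the day 5 knockout alone, all in the gene body, where 10.0% of the genome's regions were. The gene body also held chr6:47555488-47556346, listed in the day 0 knockout alone, and chr6:47561247-47562016, listed in the day 0 wild type alone.

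Ezh1 (chromosome 11, 101191115 to 101226463) did not follow Ezh2. Its window held 26644 bp in the day 5 knockout, 25907 bp in the day 0 knockout, 23272 bp in the day 5 wild type and 26680 bp in the day 0 wild type. The ratio of day 5 against day 0 was 0.07 in the knockout and 0.03 in wild type, and that of knockout over wild type was −0.12 at day 5 and −0.15 at day 0, none of them past 0.5. Of its 41 regions, 23 were listed in all 4 libraries. Its window is crowded, with 7 other protein-coding genes against 1 or 2 at each other PRC2 gene, among them Cntnap1, Vps25 and Wnk4. In the gene body alone, peaks covered 3800 bp in the day 5 knockout, 5268 bp in the day 0 knockout, 3149 bp in the day 5 wild type and 3035 bp in the day 0 wild type. The ratio of knockout over wild type at day 0 was then 0.68, with peaks at chr11:101197411-101198106 and chr11:101212902-101213642 in the day 0 knockout alone, and at chr11:101207786-101208680 in the knockout at both days.

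Suz12 (chromosome 11, 79993106 to 80034123) held 18117 bp in the day 5 knockout, 22266 bp in the day 0 knockout, 13888 bp in the day 5 wild type and 23086 bp in the day 0 wild type. The day 0 libraries again lay close together and above both day 5 libraries. The ratio of day 5 against day 0 was −0.26 in the knockout and −0.49 in wild type, just short of a call. In wild type over time the gene body differed most. Peaks covered 2042 bp in the day 5 knockout, 2930 bp in the day 0 knockout, 358 bp in the day 5 wild type and 4583 bp in the day 0 wild type. The 358 bp are the part of the start peak that lies inside the gene, and of the 6 other regions in the gene body wild type listed 0 at day 5 and 6 at day 0, and the knockout 2 at day 5 and 4 at day 0. The pair listed in the day 5 knockout was chr11:80016103-80017065 and chr11:80021021-80021985. With the gene body alone, the ratio in wild type over time was −2.51 and that of knockout over wild type at day 5 was 1.44, but both rest on those 358 bp, and at day 0 the knockout stood lower, at −0.60.

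Eed (chromosome 7, 89954654 to 89980976) held 16402 bp in the day 5 knockout, 20942 bp in the day 0 knockout, 12297 bp in the day 5 wild type and 16923 bp in the day 0 wild type. The ratio of day 5 against day 0 was −0.31 in the knockout and −0.22 in wild type. The ratio of knockout over wild type was 0.09 at day 5 and 0.19 at day 0, the highest of the 6 genes at day 0. No region at Eed was listed in wild type and missing from the knockout at day 0, where 12.3% of the genome's regions were. At that day 5 of 25 (20%) were listed in the knockout alone, which is near the genome's share of 21.5%. Upstream of Eed, 3 regions centred at −3.63, −15.0 and −38.8 kb from the start (the first at chr7:89984127-89985086) were missing from wild type at day 5 alone. The 14 genes within 2 Mb of Eed had a median of −0.27 for knockout over wild type at day 5 and 0.41 for wild type over time, so its surroundings differed from the gene itself in direction.

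Jarid2 (chromosome 13, 44730774 to 44921643), the longest of the 6 genes, held 51684 bp in the day 5 knockout, 58394 bp in the day 0 knockout, 36522 bp in the day 5 wild type and 51535 bp in the day 0 wild type. Coverage per window length was 17.8, 20.1, 12.6 and 17.7% in the same order. The ratio of day 5 against day 0 was −0.14 in the knockout and −0.26 in wild type, and that of knockout over wild type was 0.19 at day 5 and 0.07 at day 0. Most of the difference in bp lay inside the gene, where peaks covered 35489 bp in the day 5 knockout, 38911 bp in the day 0 knockout, 22533 bp in the day 5 wild type and 34135 bp in the day 0 wild type. With the gene body alone the ratio over time was −0.13 in the knockout and −0.53 in wild type. Of 57 regions within the gene body, 39 were listed in the day 5 knockout, 44 in the day 0 knockout, 26 in the day 5 wild type and 40 in the day 0 wild type. Among them 9 were missing from wild type at day 5 alone, the widest at chr13:44830657-44832053 and chr13:44863500-44864594. Over the genome, 8.94% of all regions had that pattern.

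Mtf2 (chromosome 5, 108065660 to 108109219) held 22693 bp in the day 5 knockout, 28038 bp in the day 0 knockout, 15243 bp in the day 5 wild type and 26889 bp in the day 0 wild type. The ratio of day 5 against day 0 was −0.27 in the knockout and −0.57 in wild type, and that of knockout over wild type was 0.25 at day 5 and −0.05 at day 0. Beside Ezh2 it was the other gene called lower over time in wild type, and it kept that call under each of the 11 other settings tried, from −0.51 to −0.91. The day 5 wild-type library listed no region at Mtf2 that the day 0 wild-type library lacked, and lacked 15 of 32 (46.9%). Over the genome, 24% of regions were found at day 5 alone and 27.3% at day 0 alone. Nor did wild type at day 5 list any region that the day 5 knockout lacked, where 16.2% of the genome's regions were in wild type alone. The knockout had 9 of 26 (34.6%) of its own, near the genome's share of 30.1%. Among them were chr5:108053499-108054627, centred at −11.6 kb, and chr5:108101259-108102247, 36.1 kb into the gene, both missing from wild type at day 5 alone.

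**Figure D3:**
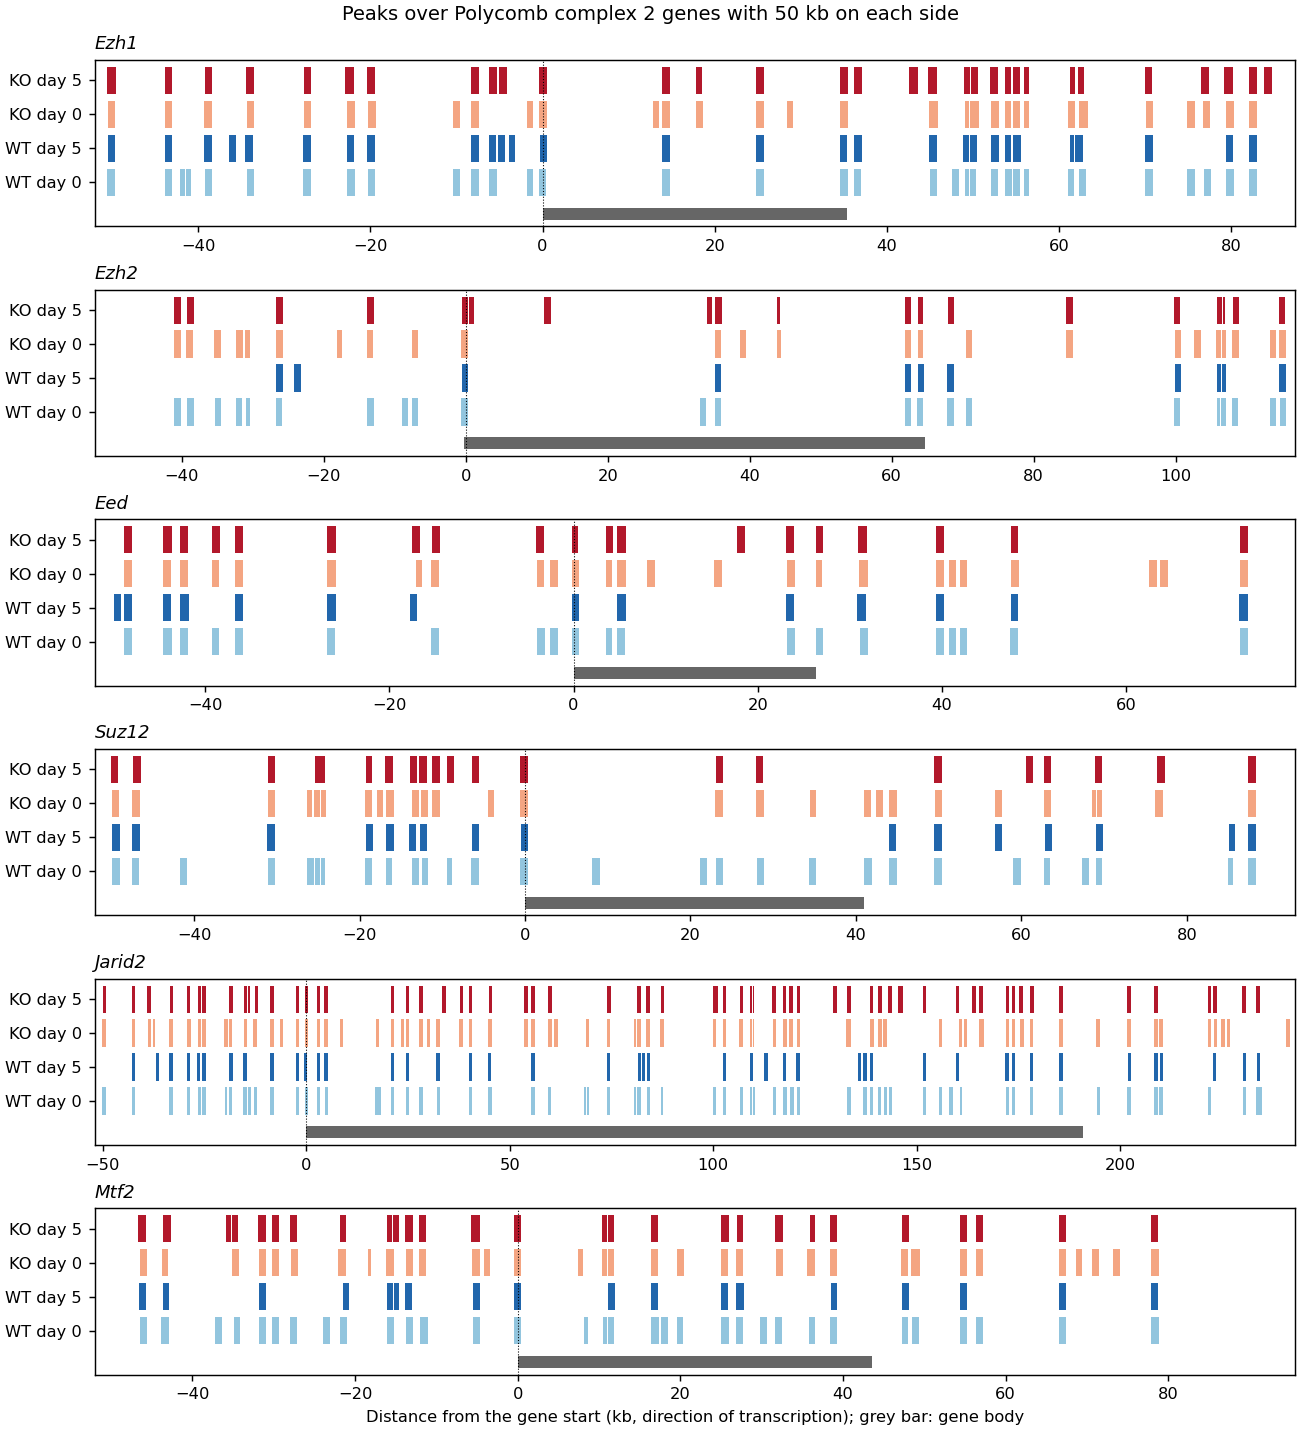
Peaks of the 4 libraries (rows, knockout above wild type and day 5 above day 0) over each gene with 50 kb on each side, by distance from the gene start in kb along the direction of transcription, with the gene body as a grey bar. The start peak recurs in every row, while upstream of Ezh2 and within Suz12 wild type at day 5 has gaps. It lists 2 of 11 upstream regions at Ezh2 and 0 of 6 further gene body regions at Suz12.

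For wild-type cells over time, 2 of 6 PRC2 genes were called lower (Ezh2 and Mtf2) and 0 higher, where 8.71% of all genes were called lower and 12.4% higher. The median of the 6 ratios was −0.38, and 5 of 6 lay below the median gene, Ezh1 being the exception. With flanks of 10 kb, 4 genes were called, all lower, where 13.9% of all genes were called lower and 14.9% higher. For the knockout over time, 0 of 6 were called in either direction, where 3.75% of all genes were called lower and 9.58% higher. Its median was −0.26, again with Ezh1 alone above the median gene. All of the 5 genes below the median gene were below it in both genotypes. The time course of the knockout minus that of wild type was positive at 5 of 6 genes, from 0.04 at Ezh1 to 0.44 at Ezh2, and −0.10 at Eed. None of these reached 0.5, where 11% of all genes were higher by that much and 10.4% lower.

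Between genotypes, 0 of 6 genes were called at day 5, where 9.87% of all genes were called higher in the knockout and 5.78% lower, and the median of the 6 was 0.14 with 5 of 6 above the median gene. With the gene body alone that median was 0.50 and 3 genes were called higher in the knockout (Ezh2, Suz12 and Jarid2), where 21.2% of all genes were called higher and 7.8% lower in that setting. At day 0 none was called either, where 6.13% of all genes were called higher and 4% lower, and the median was −0.01 with 3 of 6 above the median gene. With the gene body alone 3 genes were called at day 0 as well, Ezh1 and Eed higher in the knockout and Suz12 lower, where 14.4% of all genes were called higher and 7.25% lower. The 2 genotype comparisons share no library. Each time course shares a library with each genotype comparison, so these 4 sets of values are not independent of each other.

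**Figure D4:**
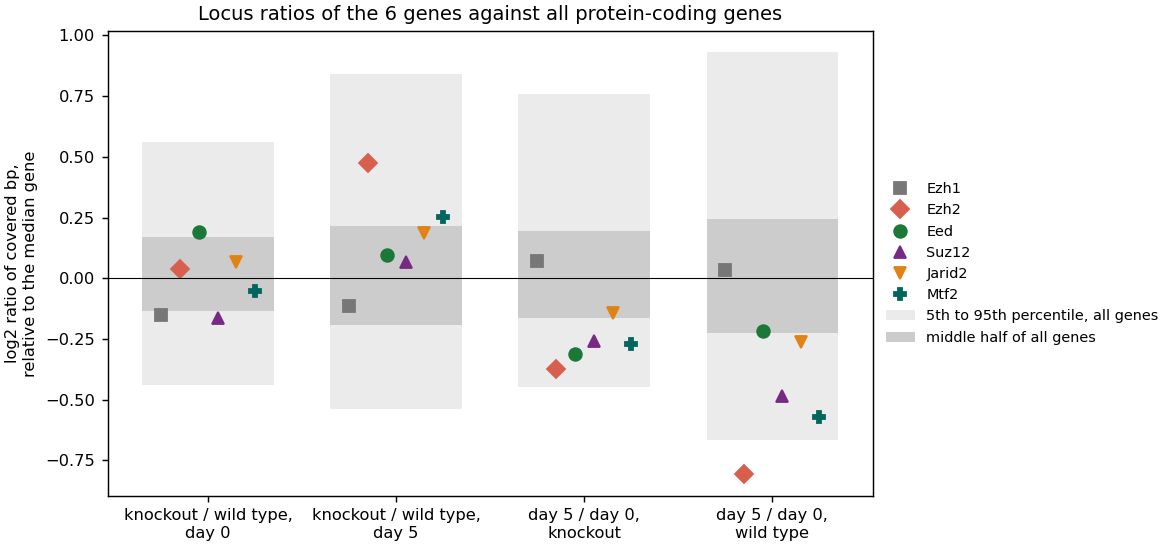
Locus ratio (log2 ratio of covered bp minus the median gene, y axis) of each PRC2 gene in the 4 comparisons, over bars for the range between the quartiles (dark) and the 5th to 95th percentile (light) of all protein-coding genes. Ezh2 in wild type over time, at −0.81, lies below the light bar, and Ezh1 lies between −0.15 and 0.07 throughout.

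The 6 windows held 257 joined regions, of which 103 (40.1%) were listed in all 4 libraries, against 33.8% of the 328524 regions of the genome. All 6 regions over the gene starts were among them. Regions over no known gene start, neighbours included, numbered 244. Of these, 90 (36.9%) were listed in all 4 libraries, against 31.8% of such regions over the genome. A start was known for 17491 of 21883 genes, so some of these regions can lie over a start that is not known. Listed at day 5 in both genotypes and at day 0 in neither were 2 regions (0.778%, against 5.01% of the genome), 1 at Ezh1 and 1 at Jarid2. The reverse, day 0 in both genotypes and day 5 in neither, held for 25 (9.73%, against 5.73%), with 8 at Jarid2, 6 at Ezh2, 3 each at Ezh1, Eed and Suz12, and 2 at Mtf2. A further 34 regions (13.2%, against 8.94%) were missing from wild type at day 5 alone, 12 of them at Jarid2 and 8 at Mtf2. Regions listed in the knockout at both days and in wild type at neither were 10 (3.89%, against 3.68%), which is near the genome's share, and the reverse was found at 2 (0.778%, against 0.854%).

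In wild type over time, 13 of the 207 regions listed at either day were found at day 5 alone (6.28%, 95% exact binomial interval 3.39 to 10.5), where 24% of all regions of the genome were, and 79 at day 0 alone (38.2%, 31.5 to 45.2), where 27.3% were. In the knockout over time, 24 of 230 were found at day 5 alone (10.4%, 6.80 to 15.1), where 22% of the genome's were, and 57 at day 0 alone (24.8%, 19.3 to 30.9), where 19.8% were. At day 5, 59 of 187 were listed in the knockout alone (31.6%, 25.0 to 38.7), where 30.1% were over the genome, and 14 in wild type alone (7.49%, 4.15 to 12.2), where 16.2% were. At day 0, 41 of 235 were listed in the knockout alone (17.4%, 12.8 to 22.9), where 21.5% were, and 29 in wild type alone (12.3%, 8.42 to 17.2), where 12.3% were. The knockout's own share at day 5 was thus near the background, while the share of wild type alone was lower than it. With the 189516 widest peaks of each library, the shares at day 5 were 24.9% for the knockout alone, where 25.1% of the genome's regions were, and 17.9% for wild type alone, where 24.4% were. The intervals cover counting error alone, and neighbouring regions of a gene are not independent draws.

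**Figure D5:**
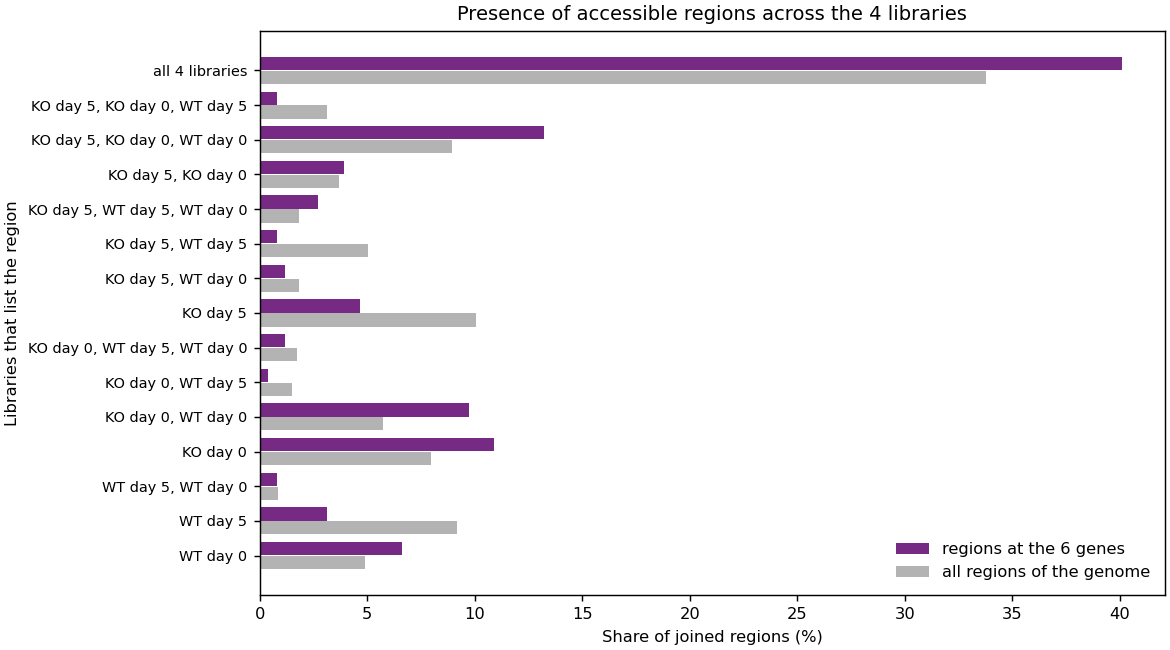
Share of joined regions (x axis, %) for each combination of libraries that list them (y axis), for the 257 regions at the PRC2 genes (purple) and all 328524 regions of the genome (grey). Regions listed by both day 0 libraries and neither day 5 library make up 9.73% at the PRC2 genes against 5.73%, and the opposite pattern 0.778% against 5.01%.

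Marker loci of cell types are given beside these values. The 7 stem cell marker loci summed to 180.6 kb of peaks in the day 5 knockout, 192.9 kb in the day 0 knockout, 131.2 kb in the day 5 wild type and 182.9 kb in the day 0 wild type. Their median ratio of day 5 against day 0 was −0.03 in the knockout and −0.24 in wild type. The 6 neural progenitor loci summed to 82.0, 80.6, 83.2 and 80.7 kb in the same order of libraries, with medians over time of 0.17 in the knockout and 0.27 in wild type, and of −0.37 for knockout over wild type at day 5. Over time, 4 of the 6 lay above the median gene in the knockout, with a range from −0.20 (Hes5) to 0.35 (Pou3f2). In wild type all 6 did. Fibroblast marker loci, which mark the cell type of the feeders, summed to 99.6, 102.8, 91.7 and 83.8 kb, with medians over time of −0.08 in the knockout and 0.34 in wild type. There Postn, a matrix protein gene, had a ratio of 1.58 and Col3a1, a collagen gene, one of 1.05 in wild type. These were the 2 of 6 called higher, where 12.4% of all genes were, and the lowest was Thy1 at −0.15. For knockout over wild type at day 0, all 6 lay above the median gene, with a median of 0.20. There 1 was called higher (Postn at 0.72), where 6.13% of all genes were. For knockout over wild type at day 5 the median was −0.13, with 2 called lower (Postn at −1.03 and Col3a1 at −0.80), where 5.78% of all genes were. The 2 above the median gene were Twist2 (0.11) and Thy1 (0.10). Within 1 kb of the Col3a1 start, 858 bp were covered in the day 5 knockout, 864 bp in the day 0 knockout, 937 bp in the day 5 wild type and 0 bp in the day 0 wild type. The 4 endoderm marker loci summed to 68.1 kb in the day 5 knockout, 49.8 kb in the day 0 knockout, 49.9 kb in the day 5 wild type and 47.0 kb in the day 0 wild type. Their median over time was 0.54 in the knockout, with 2 called higher (Sox17 at 0.95 and Foxa2 at 0.68), where 9.58% of all genes were. In wild type it was 0.26, with 1 called higher (Foxa2 at 0.78), where 12.4% of all genes were. All 4 lay above the median gene in both genotypes. The part of stem cell state, endoderm or fibroblast chromatin, or the Y-linked signal in the values of the PRC2 genes was not tested.

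Other genes of the Polycomb system were set beside the 6 as lists, chosen with earlier results of these data known. In a list of 8 accessory and histone-binding PRC2 subunits, 1 was called higher over time in wild type and 0 lower, with a median of 0.03. In the knockout 0 were called, with a median of −0.08. By comparison, 12.4% of all genes were called higher and 8.71% lower in wild type, and 9.58% and 3.75% in the knockout. The one called was Ezhip, an X-linked inhibitor of the catalytic subunit, at 1.07, on 3542 bp at day 5 and 1749 bp at day 0. The lowest in wild type was Phf19 (−0.31), a relative of Mtf2, and in the knockout Rbbp4 (−0.27), a histone chaperone subunit, while Ezhip (0.36) was the highest there as well. For knockout over wild type none of the 8 was called at either day. Of all genes, 9.87% were called higher and 5.78% lower at day 5, and 6.13% and 4% at day 0. Ratios of the 8 ran from −0.31 (Ezhip) to 0.29 (Rbbp7) at day 5, with a median of −0.08. At day 0 they ran from −0.18 (Epop) to 0.39 (Ezhip), with a median of 0.10.

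Among 22 genes of Polycomb complex 1, which adds ubiquitin to histone H2A, 1 was called higher and 3 lower over time in wild type, and 0 in the knockout. The shares over all genes were 12.4% higher and 8.71% lower in wild type, and 9.58% and 3.75% in the knockout. For the 22 genes the medians were −0.17 in wild type and 0.02 in the knockout. The values in wild type ran from −0.71 at L3mbtl2, a subunit of a variant complex, to 0.65 at the X-linked corepressor Bcor, and in the knockout from −0.50 at Phc1, a polyhomeotic subunit, to 0.39 at Pcgf5. Phc1 (−0.57) and the ubiquitin ligase gene Ring1 (−0.52) were the other genes called lower in wild type, Ring1 and Rnf2 being named after their values were seen. At day 5, 2 were called higher in the knockout than in wild type, L3mbtl2 (0.66) and Rnf2 (0.62), the gene of the main ubiquitin ligase of the complex. Pcgf2 was the lowest (−0.31). Of all genes, 9.87% were called higher in that comparison and 5.78% lower. At day 0, where 6.13% of all genes were called higher and 4% lower, none of the 22 was. L3mbtl2 stood at 0.43 there and Bmi1 at −0.27. The demethylase genes that remove the PRC2 mark, Kdm6a and Kdm6b, had ratios over time of 0.55 and −0.13 in the knockout and −0.30 and −0.01 in wild type. For knockout over wild type they were 0.36 and −0.08 at day 5 and −0.49 and 0.04 at day 0. Kdm6a, called higher in the knockout over time as 9.58% of all genes were, is X-linked. Peaks on that chromosome made up 2.92% of the list in the day 5 knockout, 2.50% in the day 0 knockout, 2.17% in the day 5 wild type and 2.15% in the day 0 wild type. All 6 PRC2 genes are autosomal.

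The 6 genes also differed in likeness to each other. As a measure, the distance between the patterns of covered bp over the 4 libraries was taken, on a log2 scale after removing each library's median gene and each gene's own mean. Eed and Jarid2 were the nearest pair (0.12), followed by Suz12 and Mtf2 (0.16), and Ezh1 and Ezh2 the farthest (0.78). Ezh2 was nearest to Mtf2 (0.24). Of all genes searched, the nearest to Ezh2 were Gmcl1 (0.03) and Ago1 (0.04), and Gmcl1 held 16.5 kb in the day 5 knockout, 21.5 kb in the day 0 knockout, 9.25 kb in the day 5 wild type and 19.7 kb in the day 0 wild type. The nearest to Suz12 were Zfp764 and Zfp454 (0.01 and 0.02), to Mtf2 Gmip and Kif18b (0.02 and 0.03), to Eed Ttc39d and Ldha (both 0.03), to Jarid2 B3gnt2 and Trim60 (both 0.02) and to Ezh1 Ehd3 and Urb2 (both 0.02). The measure rests on 4 libraries, with 18013 genes searched for Ezh2, and describes likeness in coverage alone.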

How the data were processed

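The data are 4 deposited peak lists, 1 per library, with 3 columns (chromosome, start and end) and no count, score or height. Per the file headers, each deposited list is the authors' own call for 1 library, made by cellranger-arc against mm10. Versions in the submitters' processing notes are 2.0.0 for Cell Ranger ARC and 1.7.2 for Scanpy. Peak-calling settings and doublet removal are not given in the sources used here. The RNA side of the assay was not analysed here. Gene positions and starts came from RefSeq tables of GRCm38.p6, the assembly that mm10 also names. The outermost 5′ start of each gene was used, and 17491 of 21883 genes had one.

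Covered bp were summed in each gene with 50 kb on each side. Locus ratios are log2 with a pseudocount of 500 bp, minus the median over genes with any covered base. These medians were 0.11 (knockout over wild type, day 0), 0.31 (knockout over wild type, day 5), −0.03 (day 5 over day 0, knockout) and −0.23 (day 5 over day 0, wild type). With 1 library per group no test was run. Shares carry 95% exact (Clopper-Pearson) intervals. The calculation of locus ratios was checked on simulated data. The text names the 6 genes, the highest and lowest list members with at least 2000 bp, genes nearest in pattern (at least 5000 bp, 1 Mb apart), start regions, and regions listed in, or missing from, 1 library; others named were chosen after their values were seen. Members and lists were chosen with earlier results of these data known. Python 3.11.15, numpy 2.4.6, pandas 2.3.3 and scipy 1.17.1 were used. The alternatives were other pseudocounts, windows, medians, peak numbers, equal numbers of the widest peaks and a reciprocal overlap of 50%.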

Additional observations from a re-analysis of the deposited data

How the results depend on the processing

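No paired analysis was possible because each group holds 1 library and no test was run, and for the same reason no replicate could be left out. Of 264 locus ratios recomputed under 11 alternatives, 243 moved by less than 0.25 (log2) and 21 by more, and none of the called ones changed sign. Ratios short of a call did: Ezh2 in the knockout over time was 0.37 with the gene body alone and 0.14 with flanks of 10 kb, against −0.37, Ezh2 for knockout over wild type at day 0 was −0.32 with flanks of 10 kb, against 0.04, and kept its sign in 6 of 11 settings, and Ezh1 for knockout over wild type at day 0 was 0.68 with the gene body alone, against −0.15. The median of the 6 genes for knockout over wild type at day 5 was 0.50 with the gene body alone, against 0.14. Called genes numbered 3 with the gene body alone for knockout over wild type at day 5 and at day 0, against 0 in each. At day 5, 1 was called higher with flanks of 10 kb (Eed), where 14% of all genes were. The same held for flanks of 100 kb (Ezh2, 8.22% of all genes) and 50 kb on each side of the gene start (Ezh2, 11.7%). Over time, 1 was called lower in the knockout with flanks of 10 kb (Suz12), where 9.51% of all genes were, against 0. With the widest peaks in equal numbers 1 was called lower there as well (Ezh2), where 4.99% of all genes were. In wild type 4 were called lower with flanks of 10 kb, against 2, where 13.9% of all genes were. With the widest peaks in equal numbers, regions listed in the knockout alone made up 24.9% at day 5, against 31.6%, and those listed in wild type alone 17.9% at day 5, against 7.49%, and 19.2% at day 0, against 12.3% (18.5% over the genome in that setting). With the gene body alone, the share of the knockout alone at day 5 was 40.8%, where 28.5% of the genome's regions in gene bodies were. Peak lists without read counts limit every value, because depth per library is unknown.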
